A study of Mus musculus with 17 samples.

Results

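The skin γδ IL-17 T cells described here were 1689 of the 30085 cells kept from 8 single-cell libraries of mouse skin. A kept cell had at least 200 detected genes and at most 20% of its unique molecular identifiers (UMIs, 1 per captured RNA molecule) from mitochondrial genes. A kept cell was counted as a γδ IL-17 T cell when it held at least 1 UMI of Trdc, at least 2 UMIs of Cd3d, Cd3e and Cd3g together, and at least 1 UMI of Il17a, Cd163l1, Il17f and Il23r together. These 8 genes chose the cells, so their levels are given as description and not as a result.

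The study asked how forced expression of SARA (Smad anchor for receptor activation, encoded by Zfyve9) in PDGFR-β-positive cells alters fibrosis. The study found PDGFRb-Cre active in pericytes and also in leukocytes. All mice were 8 weeks old and carried this Cre together with the Z/EG reporter, which turns on GFP after Cre recombination. SARAWT mice had no SARA transgene and SARATg mice carried it, and the skin of both genotypes received subcutaneous PBS or bleomycin (20 mg/kg per injection, given 3 times a week over 2 weeks by the labels). The methods of the study instead describe daily injections, and the files do not settle which was used. There were 3 SARAWT PBS, 3 SARAWT bleomycin, 1 SARATg PBS and 1 SARATg bleomycin library, and the labels do not say whether libraries of a group came from separate animals, so every p-value measures the spread between libraries, which may be technical. The labels call the sorted cells PDGFR-β-positive and GFP-positive, and a T cell sorted on the reporter need not transcribe Pdgfrb itself. Pdgfrb in the γδ IL-17 T cells was at 0 to 9.16 CPM (UMIs per 1000000 UMIs of the summed cells) across the libraries.

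γδ T cells carry a T cell receptor built from a γ and a δ chain, with Trdc encoding the constant part of the δ chain. A dermal branch is programmed in the thymus to make IL-17A and IL-17F within hours of meeting IL-1β or IL-23, without prior priming. In mouse skin these cells use mainly Vγ6 or Vγ4 chains and are known for recruiting neutrophils, while the dendritic epidermal T cells, another γδ lineage, use Vγ5 and do not belong to the IL-17 branch.

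The libraries held 3355217 to 69765525 UMIs, and the γδ IL-17 T cells had a median of 6811 UMIs and 2022 genes. The SARAWT PBS 2 library was the smallest and held 3 of the cells, too few for any gene test. Genotype labels were checked on the gene of the transgene, which the study built from human ZFYVE9 cDNA. Human ZFYVE9 was at 838 CPM over the kept cells of SARAWT PBS 1, against 87.4 to 187 CPM in the other libraries whose gene list holds that gene, and mouse Zfyve9 was at 620 CPM in SARAWT PBS 3, against 314 and 224 CPM in both SARATg libraries and 7.71 to 25.9 CPM in the remaining SARAWT libraries. Within the γδ IL-17 T cells, mouse Zfyve9 was at 800 CPM in SARAWT PBS 3, 575 CPM in SARATg PBS, 453 CPM in SARATg bleomycin, 23.5 CPM in SARAWT PBS 1 and at most 1.05 CPM in the other libraries. Human ZFYVE9 was not followed within these cells, because it is not in the gene list of every library. Both SARAWT PBS libraries large enough for gene tests thus went against their label. The others with human ZFYVE9 in their gene list, SARAWT PBS 2 and SARAWT bleomycin 1 and 2, are labelled SARAWT as well. Their human ZFYVE9 (87.4 to 187 CPM) lay above their mouse Zfyve9 (7.71 to 11.9 CPM), and its source was not tested. The 8-library share and the gene tests other than the one within SARAWT are also given without SARAWT PBS 1 and 3, which was decided after the values were seen. Leaving these out does not settle the genotype of the remaining libraries. The comparisons within SARAWT would keep only PBS 2 and are not. Of the γδ IL-17 T cells, 21 carried a barcode found in more than 1 library and 75 were predicted doublets.

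Il17a (chr1:20730905-20734496, plus strand) and Il17f (chr1:20777146-20790617, minus strand) are neighbouring protein-coding genes on GRCm38 that encode the lead cytokines of these cells. The 250 bases before the RefSeq start of each gene (GRCm38.p6) are printed 5′ to 3′ on the gene's own strand, since both genes were used to choose the cells, with TATAAA, a core promoter motif near which transcription often starts, or its reverse complement TTTATA, in capitals.
Il17a, chr1:20730655-20730904, plus strand: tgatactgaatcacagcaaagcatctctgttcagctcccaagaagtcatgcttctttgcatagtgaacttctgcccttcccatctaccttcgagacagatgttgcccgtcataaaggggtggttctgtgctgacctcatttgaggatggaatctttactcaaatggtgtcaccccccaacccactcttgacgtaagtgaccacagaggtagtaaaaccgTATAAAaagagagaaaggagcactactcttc
Il17f, chr1:20784271-20784520, minus strand: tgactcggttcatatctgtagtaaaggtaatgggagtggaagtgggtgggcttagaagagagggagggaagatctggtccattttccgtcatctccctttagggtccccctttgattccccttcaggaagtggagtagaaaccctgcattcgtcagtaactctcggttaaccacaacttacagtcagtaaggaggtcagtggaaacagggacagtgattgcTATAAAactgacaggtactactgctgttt
Each window held 1 match, on the gene's own strand, which began 31 bases before the start in Il17a and 29 bases before it in Il17f. Of 32851 promoter windows of that length, 4063 (12.4%) held the motif on either strand. The GENCODE vM21 model of Il17f reaches further upstream, so the Il17f window lies inside that longer gene model.

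The name of the cells was checked against their markers. Tcrg-C1, the constant gene of a γ chain, was not part of the choice and had a UMI in 74.6% of the γδ IL-17 T cells, 7.29% of αβ T cells and 0.0643% of 3111 stromal cells of the same libraries, although stromal cells were deeper (median 16243 UMIs). As a γ chain gene it follows from the choice on Trdc. Of T cells with Trdc but none of the last 4 genes of the rule, 46.2% had it too. Tcrg-C1 thus does not bear on the IL-17 part of the name. Blk, a Src-family kinase of IL-17-producing γδ cells that was not part of the choice either, had a UMI in 57.7% of the γδ IL-17 T cells, 3.73% of αβ T cells and 0.225% of stromal cells. The rule itself fixed high shares of the other genes, which do not bear on the name. Cd163l1, a scavenger receptor (SCART1), had a UMI in 76.7% of the γδ IL-17 T cells, Il17a in 57.2%, Il17f in 56.7% and Il23r, a chain of the IL-23 receptor, in 53.3%. In stromal cells, which should lack these genes, the 4 shares lay between 0.0643% and 1.06%. Transcripts of the αβ receptor were present as well. Trac, the α chain constant gene, had a UMI in 25.9% of the γδ IL-17 T cells, 76.1% of αβ T cells and 0.482% of stromal cells, and 1567 of the 1689 cells had a UMI of an α or β chain constant gene. Il17a or Il17f was detected in 74.2% of the cells and all of the 4 genes in 14.0%, whereas 190 cells (11.2%) were chosen by Cd163l1 alone. The γδ IL-17 T cells held 80.5% of all Il17a UMIs of the skin libraries, 78.7% of the Il17f UMIs and 95.5% of the Cd163l1 UMIs, with αβ T cells holding 16.4%, 17.6% and 1.24%. The Il17a share in γδ IL-17 T cells was lowest in SARATg bleomycin (63.0%) and lay at 85.9% to 96.7% in the other libraries, and without SARATg bleomycin the γδ IL-17 T cells held 89.7% of the Il17a UMIs and αβ T cells 6.94%. For Il17f these shares without SARATg bleomycin were 86.3% and 10.0%. Over all libraries the γδ IL-17 T cells also held 67.6% of the Il22 UMIs but only 6.58% of the Tnf and 8.24% of the Csf2 UMIs.

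At the edge of the choice, 92 cells had exactly 1 UMI of Trdc, and Blk was detected in 40.2% of them. Just outside it, 467 cells met the other parts of the rule with no Trdc UMI, of which 8.78% had Blk and 72.6% had Trac. Another 145 Trdc-positive T cells had no UMI of the last 4 genes. Of these, 16.6% had Blk.

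The first question was whether bleomycin changed how many of these cells the libraries held. The γδ IL-17 T cells made up 1.13%, 0.384% and 6.21% of kept cells in SARAWT PBS libraries 1, 2 and 3, and 5.48%, 8.99% and 9.53% in SARAWT bleomycin libraries 1, 2 and 3. The share was 1.25% in SARATg PBS and 6.93% in SARATg bleomycin. All bleomycin libraries but SARAWT bleomycin 1 lay above every PBS library, which SARAWT PBS 3 kept from being a clean separation. The SARAWT means were 8.00% ± 2.20 with bleomycin and 2.57% ± 3.17 with PBS (SD, n = 3 each), a difference of 5.42 percentage points that did not pass a two-sided exact permutation test (p = 0.2, smallest possible 0.1). Over all 8 libraries the difference was 5.49 points (exact permutation p = 0.0571, n = 4 each). Without both SARAWT PBS libraries that went against their label it was 6.92 points (exact permutation p = 0.133). That is the smallest p these libraries allow, and the remaining PBS libraries lay below every bleomycin library. A larger share can come from more of these cells or from fewer other cells passing the sort, and these cannot be told apart.

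Among T cells, a denominator of like depth, the γδ IL-17 T cells made up 40.0%, 27.3% and 55.4% in the SARAWT PBS libraries and 77.6%, 72.0% and 56.8% in the SARAWT bleomycin libraries. The SARATg shares were 33.3% with PBS and 43.1% with bleomycin. The SARAWT groups did not overlap and differed by 27.9 points, with the smallest p that 3 against 3 libraries allow (exact permutation p = 0.1). The SARATg bleomycin share lay below that of SARAWT PBS 3. Among Trdc-positive T cells, the share that met the IL-17 part of the rule was 82.1% in SARAWT PBS 1, 3 of 5 cells in SARAWT PBS 2, 83.2% in SARAWT PBS 3, 97.5%, 96.5% and 93.3% in SARAWT bleomycin, 87.7% in SARATg PBS and 96.8% in SARATg bleomycin. Every bleomycin library was above every PBS library in that share, which is given without a test.

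**Figure D1:**
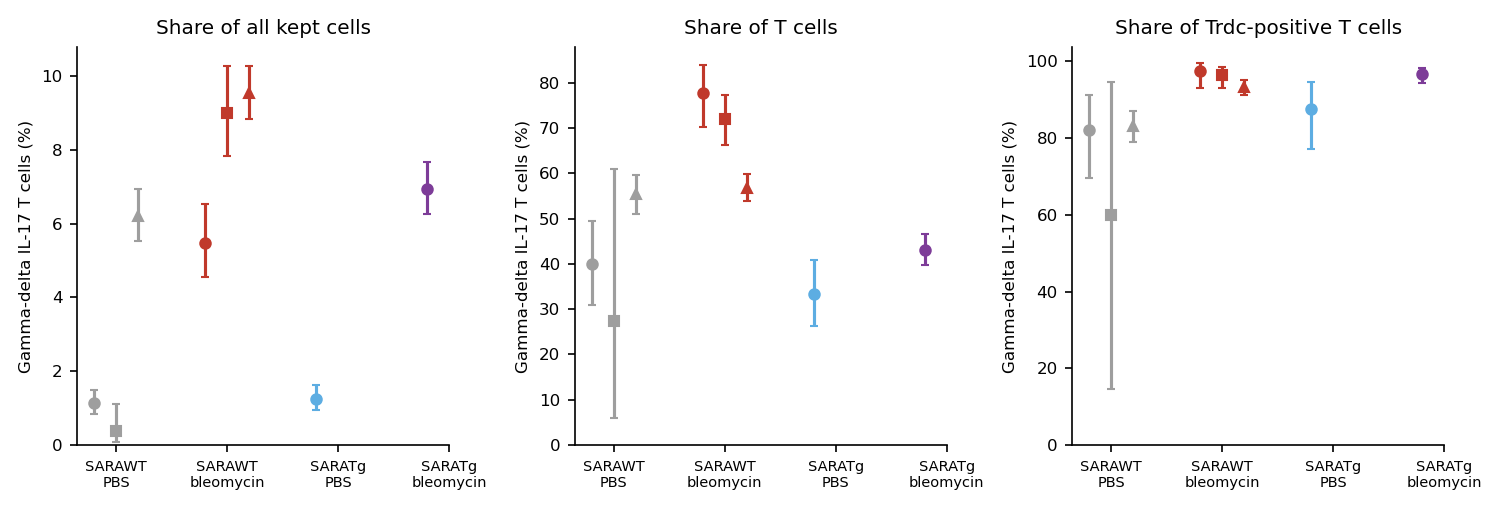
Share of γδ IL-17 T cells (%, y axes) among all kept cells (left), T cells (middle) and Trdc-positive T cells (right) in the 8 libraries, by group on the x axis, with exact Clopper-Pearson 95% intervals that cover counting error only. Circles, squares and triangles are libraries 1, 2 and 3 of a group. SARAWT PBS 3 (6.21% of kept cells) lay apart from the other PBS libraries, and among Trdc-positive T cells the bleomycin libraries lay at 93.3% to 97.5%.

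Il17a was then followed in all Trdc-positive T cells, which were chosen without it. With PBS its level in SARAWT libraries 1, 2 and 3 was 1422, 2646 and 549.8 CPM. With bleomycin it was 1717, 857 and 847 CPM. It stood at 978 CPM in SARATg PBS and 1213 CPM in SARATg bleomycin. The SARAWT groups overlapped (bleomycin minus PBS -399 CPM, exact permutation p = 0.7, n = 3 each), and the sign turned to 155 CPM without SARAWT PBS 2, which held 5 such cells.

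Compared with αβ T cells of the same libraries, the γδ IL-17 T cells had more transcripts of Blk, Sox13, Maf and Zbtb16, of the receptor genes Il1r1 and Il2ra and of Tnf, and fewer of Cd4, Cd8a, Cd28, the kinase gene Lck, Ifng, Il5 and Il13. αβ T cells were T cells with at least 2 UMIs of Trac, Trbc1 and Trbc2 together and no Trdc (1234 cells). UMIs were summed per library and class over the 7 libraries with at least 10 cells of both, and tested with edgeR with the library as a block. Of 8848 genes, 1574 (17.8%) passed at a Benjamini-Hochberg adjusted p of 0.05, 822 higher (9.29%) and 752 lower (8.5%) in the γδ IL-17 T cells, with a median log2 fold change of -0.02 over all genes. The genes that chose either class are left out of all such counts. γ and δ chain genes follow from the choice on Trdc and are given as description.

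Among type 17 regulators, 11 of 22 tested genes were higher in the γδ IL-17 T cells and 3 were lower (median log2 fold change 0.21). Maf, a factor needed by IL-17-producing γδ cells, was at 471 to 1161 CPM (median 843) in the γδ IL-17 T cells and at 257 to 397 CPM (median 293) in αβ T cells, without overlap (log2 fold change ± SE, 1.45 ± 0.13). Sox13, which marks the thymic precursors of these cells, was at 11.2 to 45.3 CPM against 0 to 3.03 CPM (4.45 ± 0.38). Zbtb16, encoding the innate-like lymphocyte factor PLZF, was at 29.9 to 89.4 CPM against 3.90 to 22.9 CPM (2.29 ± 0.33), also without overlap. Blk was at 135 to 230 CPM (median 162) against 3.45 to 23.4 CPM (median 7.62). Its log2 difference was 4.46 ± 0.17 (edgeR adjusted p = 5.63e-08). The lower members were Gata3 (-2.17 ± 0.22) and Tbx21 (-3.75 ± 0.38), the lead factors of type 2 and type 1 T cells, and Eomes, a relative of Tbx21 with no UMI in any of the γδ IL-17 T cells against 0 to 50.1 CPM in αβ T cells.

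The antigen receptor machinery differed in its parts. Trdv4, which encodes the δ chain variable segment paired with Vγ6 in skin, was at 55.5 to 517 CPM (median 279) in the γδ IL-17 T cells and at most 11.4 CPM in αβ T cells. Lck (chr4:129548344-129573641, minus strand), the Src-family kinase that starts signalling from CD4 and CD8, had a UMI in 1.12% of the γδ IL-17 T cells and in 52.3% of αβ T cells. Lck was at 0 to 6.40 CPM (median 1.57) against 79.4 to 177 CPM (median 117), lower in 7 of 7 libraries (-5.76 ± 0.35, edgeR adjusted p = 9.49e-07). Cd28, the main costimulatory receptor of αβ T cells, was at 0 to 11.5 CPM against 192 to 443 CPM (-5.72 ± 0.25). Cd5 (-3.63 ± 0.23), Cd6 (-3.37 ± 0.13) and Cd27 (-3.29 ± 0.33) were lower as well. Cd247, which encodes the ζ chain of the receptor, was higher in the γδ IL-17 T cells (2.24 ± 0.17), as were Zap70 (0.47 ± 0.13) and Lat (0.43 ± 0.11), both downstream of the receptor. All 7 testable αβ T cell markers were lower (median log2 fold change -6.39). Trbc1 and Trbc2, the constant genes of the β chain, had UMIs in many of the γδ IL-17 T cells all the same, with Trbc2 detected in 78.5% of them, as against 2.15% of stromal cells.

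**Figure D2:**
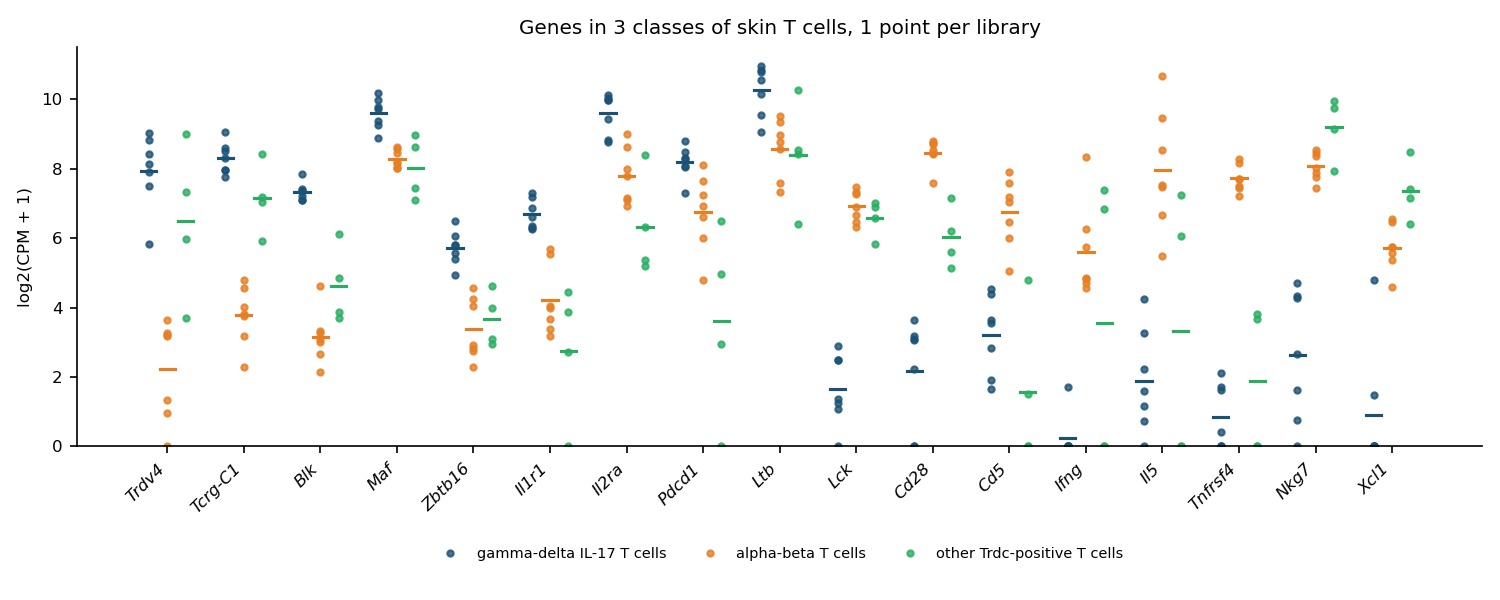
Level of 17 genes (log2 of CPM plus 1, y axis) in γδ IL-17 T cells, αβ T cells and other Trdc-positive T cells, with 1 point per library that held at least 10 cells of the classes compared and a bar at the mean of the points. The means of Maf, Blk, Il1r1 and Il2ra were highest and those of Lck and Nkg7 lowest in the γδ IL-17 T cells.

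Of 17 tested cytokine genes, 3 were higher and 7 lower than in αβ T cells. Tnf was at 127 to 350.0 CPM (median 215) in the γδ IL-17 T cells and at 18.4 to 110 CPM (median 57.0) in αβ T cells, without overlap (2.03 ± 0.30). The other higher genes were of the same family, Lta (2.49 ± 0.38), the neighbour of Tnf, and Tnfsf14, which encodes LIGHT (1.37 on the log2 scale). Ifng, the type 1 cytokine, had UMIs in a single library of the γδ IL-17 T cells (2.29 CPM in SARAWT PBS 3) against 22.8 to 326 CPM in αβ T cells (-6.64 ± 0.42). Il5 was at 0 to 17.8 CPM against 43.5 to 1626 CPM (-5.98 ± 0.44), and Il13 at 0 to 22.6 CPM against 21.8 to 854 CPM (-4.66 ± 0.71). Il5 and Il13 are type 2 cytokines. Il22, which acts on keratinocytes, was at 59.7, 109, 79.3, 621, 19.4, 98.5 and 377 CPM in SARAWT PBS 1 and 3, SARAWT bleomycin 1, 2 and 3, SARATg PBS and SARATg bleomycin. The Il22 levels spread over an order of magnitude within one treatment, and the difference from αβ T cells did not pass (1.51 ± 0.57, edgeR adjusted p = 0.091). Areg, a repair-associated ligand of the EGF receptor, did not pass either (0.44 ± 0.47, edgeR adjusted p = 0.57).

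Among cytokine receptors, 8 of 25 tested genes were higher and 6 lower. Il1r1, the receptor for IL-1β, was at 75.6 to 156 CPM (median 96.0) against 8.06 to 50.1 CPM (median 14.8), without overlap (2.34 ± 0.24). Il2ra, the high-affinity chain of the IL-2 receptor, was at 435 to 1111 CPM (median 1001) against 120 to 510 CPM (median 220), higher in 7 of 7 libraries (1.95 ± 0.25). Of 26 type 17 surface and companion genes, 13 were higher and 1 lower (median 0.60). They included Ltb, a membrane-bound ligand of the TNF family (1.81 ± 0.11), the potassium channel gene Kcnk1 (3.57 ± 0.29), the glycerol channel gene Aqp3 (1.84 ± 0.19) and the chemokine receptor gene Cxcr6 (0.91 ± 0.10). Ccr6, often used to mark these cells, did not pass (0.34 ± 0.27, edgeR adjusted p = 0.43).

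Checkpoint and activation genes were split, with 7 of 28 higher and 8 lower. Pdcd1, which encodes the inhibitory receptor PD-1, was at 156 to 444 CPM (median 310) against 26.7 to 277 CPM (median 121), and was higher in 7 of 7 libraries (1.44 ± 0.24). Ctla4 (-4.49 ± 0.28), Cd40lg (-5.74 ± 0.31) and Tnfrsf4, encoding the costimulatory receptor OX40 (-6.79 ± 0.33), were lower. Of 22 proliferation genes, 14 were lower and 1 was higher (median -0.87), with Mki67 at 33.6 to 110 CPM against 65.9 to 366 CPM (-1.22 ± 0.17) and Top2a at 32.2 to 126 CPM against 82.3 to 278 CPM (-1.12 ± 0.12). Of 14 cytotoxic genes, 7 were lower and 1 higher. Nkg7, a granule protein of cytotoxic lymphocytes, was at 0 to 25.2 CPM against 174 to 369 CPM (-5.08 ± 0.51).

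TGF-β signalling genes counted 2 higher and 4 lower of 19 tested (median -0.18), where 9.29% of all genes were higher and 8.5% lower, so the count of higher genes is at the background level. Tgfbr2, the ligand-binding receptor chain, was lower (-0.61 ± 0.15, edgeR adjusted p = 0.0163), and so was Itgav (-0.61 ± 0.19), an integrin chain that takes part in activating latent TGF-β, which was lower in 7 of 7 libraries but did not pass under 7 alternatives. Its partner Itgb8 (-2.78 ± 0.73) rested on 19 UMIs in 9 of the γδ IL-17 T cells, was lower in 3 libraries and higher in 1, and did not pass with DESeq2 (adjusted p = 0.185) or without SARAWT PBS 3 (edgeR adjusted p = 0.0771). Without both SARAWT PBS libraries, Tgfbr2 and Itgav did not pass (edgeR adjusted p = 0.0746 and 0.0942). Tgfb1 was detected in 89.9% of the γδ IL-17 T cells, at 302 to 486 CPM in the 7 libraries, and did not pass (0.17 ± 0.09, edgeR adjusted p = 0.213). Mouse Zfyve9 was high in SARAWT PBS 3, SARATg PBS and SARATg bleomycin, at 800, 575 and 453 CPM against 455, 308 and 336 CPM in their αβ T cells. The gene list of these libraries lacks human ZFYVE9, the gene of the transgene, which was not tested. The difference of mouse Zfyve9 (0.80 ± 0.17, edgeR adjusted p = 0.00743) rested on these libraries and did not pass without both SARAWT PBS libraries (edgeR adjusted p = 0.0711).

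The genes named by the size of their difference added several of known and less familiar function. Abi3bp, an extracellular matrix binding protein (3.71 ± 0.28), Mtcl1 (3.55 ± 0.30), Npnt, an integrin ligand (3.16 ± 0.29), Tpbg (3.11 ± 0.31) and Pde5a, a cGMP phosphodiesterase (2.95 ± 0.26), were higher in all 7 libraries, as the rule that named them requires. Bcl2a1a, an anti-apoptotic relative of Bcl2, was higher by 3.76 ± 0.39 and has near-identical copies, so that its count is uncertain. Of the named differences from αβ T cells, 62 of 72 passed under every alternative tried. Without both SARAWT PBS libraries 1310 genes passed, 1133 of the 1574 among them.

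Other Trdc-positive T cells, which had none of the 4 IL-17 genes, numbered 145, and 4 libraries (SARAWT PBS 1, SARAWT PBS 3, SARAWT bleomycin 3 and SARATg bleomycin) held at least 10 of them. Of 6390 genes, 240 (3.76%) passed in edgeR with the library as a block, 114 higher (1.78%) and 126 lower (1.97%) in the γδ IL-17 T cells. T cell receptor genes counted 1 higher and 3 lower of 15 tested (median 0.43). Of the effector genes, type 17 regulators counted 6 higher and 3 lower of 22 (median 0.87, all genes -0.0021) and cytotoxic genes 8 lower and none higher of 13 (median -3.14). The count fell to 35 without SARAWT PBS 3, to 133 without SARAWT PBS 1 and to 33 without both, which leaves 2 libraries and 1 residual degree of freedom. Of 47 named genes, 6 passed under every alternative (Lck, Nkg7, Il12rb2, Ctsw, Atp1b1 and Nrgn). Il1r1, Il2ra, Pdcd1, Blk, Nfkbiz, Zbtb16, Maf and Il22, all described next, did not pass without SARAWT PBS 3, with edgeR adjusted p between 0.0584 (Pdcd1) and 0.28 (Il22).

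Il1r1 was at 96.0, 77.8, 79.8 and 146 CPM in the γδ IL-17 T cells and at 0, 5.63, 20.7 and 13.6 CPM in the other Trdc-positive T cells of these 4 libraries, in that order. The classes did not overlap (3.17 ± 0.44, edgeR adjusted p = 0.00729). Il2ra was at 435, 1010.4, 1041 and 1111 CPM against 35.7, 78.8, 334 and 40.8 CPM (3.30 ± 0.46). Pdcd1 was at 156, 264, 444 and 314 CPM against 0, 30.02, 88.6 and 6.79 CPM (3.27 ± 0.41). Blk was at 135 to 163 CPM against 11.9 to 67.9 CPM (edgeR adjusted p = 0.0151). Nfkbiz, which encodes the NF-κB cofactor IκBζ of IL-17 responses (2.23 ± 0.40), Zbtb16 (2.06 ± 0.41) and Maf (1.82 ± 0.42, higher in 3 of 4 libraries) were also higher. Il22 was at 59.7, 109, 19.4 and 377 CPM against 0, 0, 17.7 and 6.79 CPM (3.98 ± 0.91, edgeR adjusted p = 0.0479).

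The 126 lower genes included 8 of the 13 cytotoxic genes and 7 of the 11 dendritic epidermal T cell markers tested. Nkg7 was at 19.2, 25.2, 5.36 and 0.678 CPM against 857, 565, 242 and 998 CPM (-5.79 ± 0.69). Lck was at 6.40, 4.57, 1.12 and 1.36 CPM against 119, 93.8, 56.1 and 129 CPM (-5.03 ± 0.44, edgeR adjusted p = 0.00112), and it passed under every alternative. Il12rb2, a chain of the IL-12 receptor (-5.98 ± 0.87), Xcl1, a chemokine of dendritic epidermal T cells (-5.30 ± 0.96), Fcer1g (-2.84 ± 0.32) and Ctsw (-3.14 ± 0.21) were lower. Tgfbr2 (-1.03 ± 0.22) and the inhibitory Smad gene Smad7 (-1.06 ± 0.21) were lower too, but neither passed without SARAWT PBS 3 (edgeR adjusted p = 0.188 and 0.195) or without predicted doublets (0.0504 for both). Xcl1 did not pass without SARAWT bleomycin 3, nor Fcer1g without both SARAWT PBS libraries (edgeR adjusted p = 0.122). Tcrg-C1 and Trdv4 did not pass (0.97 ± 0.30, edgeR adjusted p = 0.122, and 0.91 ± 0.48, edgeR adjusted p = 0.38). Krt79, with the largest difference among the named higher genes (6.19 ± 0.59), rested on 1, 4, 2 and 2 γδ IL-17 T cells of the 4 libraries, and within SARAWT PBS 3 1 cell held 94.9% of its UMIs. Krt14, another keratin, was found in 1, 10, 3 and 15 of the cells.

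Within the γδ IL-17 T cells, a pair of neighbouring scavenger receptor genes on chromosome 7 split the population. They are Cd163l1 (SCART1, chr7:140218267-140231145, plus strand) and 5830411N06Rik (SCART2, chr7:140247284-140300736, plus strand). Only Cd163l1 was part of the choice. 5830411N06Rik had a UMI in 39.7% of the γδ IL-17 T cells, 40.7% of other Trdc-positive T cells and 9.48% of αβ T cells. Its detection therefore did not set the γδ IL-17 T cells apart from other Trdc-positive T cells. Of the cells with a UMI of Il17a, Il17f or Il23r, 840 had Cd163l1 alone, 374 had 5830411N06Rik alone, 265 had both and 20 had neither. These cells with Cd163l1 alone were 7 of all 46 γδ IL-17 T cells in SARAWT PBS 1, 99 of 288 in SARAWT PBS 3 and 26 of 57 in SARATg PBS, as well as all 3 cells of SARAWT PBS 2. They were 80 of 118, 116 of 195 and 330 of 624 in SARAWT bleomycin 1, 2 and 3, and 179 of 358 in SARATg bleomycin. The totals also count cells with no UMI of Il17a, Il17f or Il23r, which are in none of the subsets. These subsets were formed from the measured values of the same cells, so their differences are given without tests, as means ± SD over the 6 libraries with at least 10 cells of both.

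Trdv4 was at 561 ± 141 CPM in the cells with Cd163l1 alone and at 4.53 ± 6.20 CPM in the cells with 5830411N06Rik alone. The Vγ6 gene Tcrg-V6 was at 24.5 ± 9.60 CPM in the former and had no UMI in the latter, and Trdv5, another δ chain variable gene, was at 0.628 ± 1.03 CPM against 19.6 ± 9.97 CPM. The receptor genes thus went with different δ chains in 6 of 6 libraries. Il17f was at 663 ± 219 CPM against 1714 ± 566 CPM and was lower with Cd163l1 alone in 6 of 6 libraries, whereas Il17a was at 1396 ± 561 against 1164 ± 877 CPM and was higher in 4 of 6. Il22 was at 361 ± 387 against 89.2 ± 71.5 CPM, Pdcd1 at 478 ± 85.6 against 153 ± 47.1 CPM, Il2ra at 1153 ± 403 against 586 ± 282 CPM and Zbtb16 at 82.6 ± 15.0 against 28.1 ± 14.8 CPM, each higher with Cd163l1 alone in 6 of 6 libraries. Ccr6, which encodes the receptor for CCL20, went the other way (28.2 ± 14.2 against 68.8 ± 27.1 CPM, lower in 6 of 6). The 2 subsets had like depth (median 6746.5 and 6968 UMIs).

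**Figure D3:**
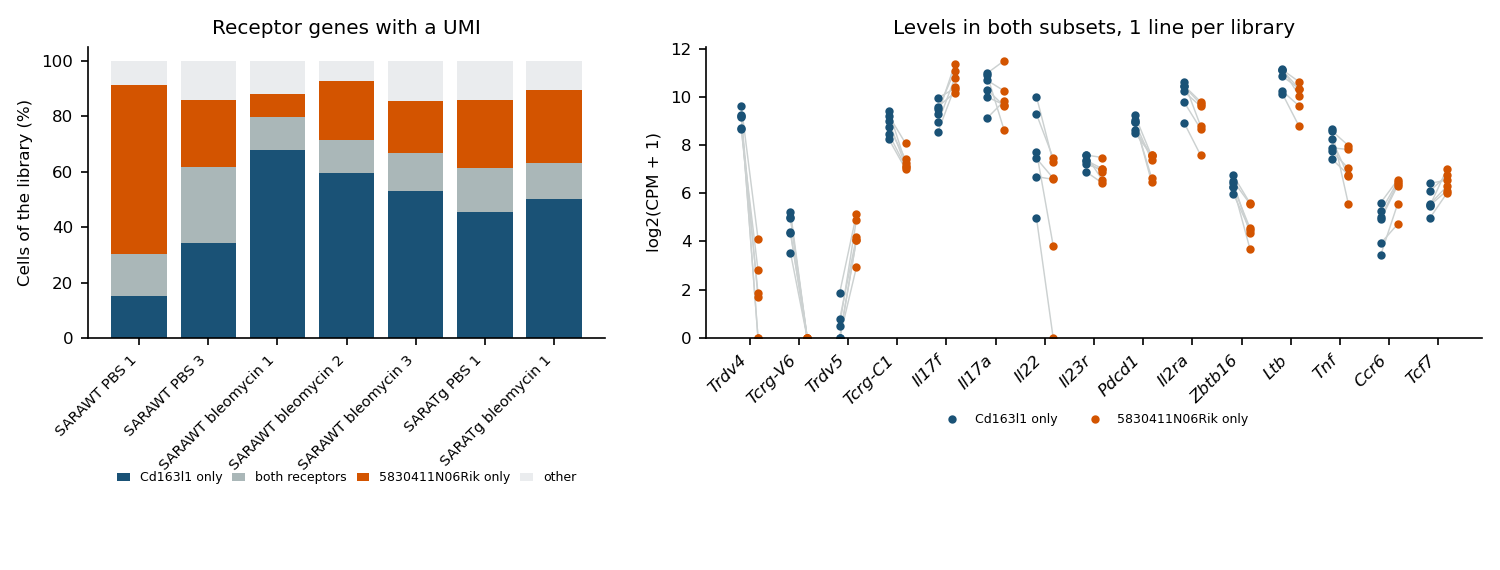
Left, share of the γδ IL-17 T cells of each library (%, y axis) with UMIs of Cd163l1 alone, of both receptor genes or of 5830411N06Rik alone, among cells that also had a UMI of Il17a, Il17f or Il23r, with the remaining cells as other. Right, level of 15 genes (log2 of CPM plus 1, y axis) in both subsets, with 1 point per library and grey lines joining the subsets of a library. Trdv4, Tcrg-V6, Pdcd1 and Zbtb16 were higher with Cd163l1 alone in 6 of 6 libraries, and Trdv5, Il17f and Ccr6 were lower.

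The variable genes were captured in few cells, of which 149 had Tcrg-V6 alone, 42 had Tcrg-V4 alone and 2 had both. Only 2 libraries had at least 10 cells of both kinds, so they were not tested against each other. The share of the γδ IL-17 T cells with a Trdv4 UMI was 17.4% and 38.2% in SARAWT PBS 1 and 3, 43.9% in SARATg PBS, 66.1%, 57.9% and 62.8% in SARAWT bleomycin, and 49.7% in SARATg bleomycin. These bleomycin libraries lay above the PBS libraries, yet the level of Trdv4 did not pass in the gene test over the same 7 libraries (log2 fold change 1.37 ± 0.46, edgeR adjusted p = 0.305). In the 3 cells of SARAWT PBS 2, 2 had a Trdv4 UMI.

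The next question was which genes bleomycin changed inside these cells. In SARAWT libraries alone (PBS 1 and 3 against bleomycin 1, 2 and 3, with PBS 2 left out for its 3 cells), 0 of 8680 genes (0%) passed in edgeR, with 446 at an unadjusted p under 0.05 and 27 called by DESeq2. With no filter on low counts 182 passed, and 38 passed in a fit of the 4 groups over all libraries. Genes also passed with the replicate number as a block, as given under the dependence on the processing. The smallest adjusted p was 0.177 and was shared by Ifi27l2a (2.74 ± 0.38), Cybb, Ccl20, Lcn2 and Zfyve9 among others. Zfyve9 was at 23.5 and 800 CPM in the PBS libraries and at most 1.05 CPM in the bleomycin libraries.

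With the SARATg libraries added and genotype and gene list as terms, 23 of 9200 genes (0.25%) passed in edgeR over 7 libraries, 16 higher (0.174%) and 7 lower (0.0761%) with bleomycin. The lower genes included the interferon-γ and TNF receptor genes Ifngr1 and Tnfrsf1a and the TNF-family ligand gene Tnfsf11, and the higher genes included chemokine and Bcl2-family genes. None of the 15 named genes passed under every alternative. No gene passed when the term for the gene list was left out (679 at an unadjusted p under 0.05), and 2 passed without SARAWT bleomycin 2. The balance of directions depended on the cells and libraries used. Without predicted doublets 23 genes passed, 6 higher and 17 lower, and 11 of them were among the 23 above. Lower genes also outnumbered higher ones without SARAWT PBS 3 (23 against 20), SARAWT bleomycin 3 (25 against 20), SARATg PBS (25 against 18) and SARATg bleomycin (21 against 14). The gene list is that of the reference used for counting. All libraries on the shorter list, and none on the longer list, had UMIs of the Y-linked gene Ddx3y in these cells, so that gene list and sex of the mice cannot be told apart.

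Tnfsf11, which encodes RANKL, a cytokine of lymphocytes that drives osteoclast formation, was at 19.2, 163 and 151 CPM in SARAWT PBS 1, SARAWT PBS 3 and SARATg PBS. It was at 3.78, 0 and 6.93 CPM in SARAWT bleomycin 1, 2 and 3 and at 8.48 CPM in SARATg bleomycin. Each bleomycin library was below each PBS library, which the rule that named the gene requires. Tnfsf11 fell by 4.33 on the log2 scale (SE 0.38, edgeR adjusted p = 0.00336). Its UMIs were spread over 83 of 288 cells in SARAWT PBS 3 and 18 of 57 cells in SARATg PBS but over 4 of 46 cells in SARAWT PBS 1. It passed under all alternatives but 1, the fit without the gene list.

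Ifngr1, a chain of the interferon-γ receptor, was at 544, 508 and 447 CPM in these PBS libraries, 204, 236 and 263 CPM in SARAWT bleomycin and 179 CPM in SARATg bleomycin (-1.18 ± 0.16, edgeR adjusted p = 0.02). Tnfrsf1a, a receptor for TNF, was at 137, 75.5 and 77.9 CPM against 41.5, 38.3, 28.4 and 45.8 CPM (-1.35 ± 0.21). Rgcc, a cell cycle regulator, was at 228, 219 and 350 CPM against 85.6, 57.2, 37.8 and 109.5 CPM (-1.95 ± 0.23). None of the 3 genes overlapped between PBS and bleomycin libraries, but the rule that named them requires this, so it adds no support. Ctla2a, a cysteine protease inhibitor, was at 68.3, 134 and 34.4 CPM against 1.26, 13.1, 15.0 and 0 CPM (-3.41 ± 0.54), but in SARAWT PBS 1 its UMIs came from 1 cell. Ramp3 (-1.22 ± 0.20) and Kbtbd11 (-2.22 ± 0.32) fell as well.

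Cxcl2, a neutrophil-attracting chemokine, was at 70.4, 208 and 153 CPM with PBS and at 374, 216, 669 and 415 CPM with bleomycin (1.74 ± 0.24, edgeR adjusted p = 0.02). Bcl2a1a was at 76.8, 124 and 119 CPM against 268, 265, 362 and 268 CPM (1.53 ± 0.19), and its near-identical relative Bcl2a1b rose by 1.01 ± 0.13. Slc15a3, a lysosomal peptide transporter of immune cells, was at 61.9, 220.5 and 124 CPM against 283, 251, 429 and 418 CPM (1.59 ± 0.24). Klrb1b, an inhibitory lectin-like receptor, was at 8.53, 4.12 and 4.58 CPM against 51.6, 53.0, 16.5 and 15.9 CPM (2.20 ± 0.34). The interferon-induced gene Ifi27l2a was at 19.2, 32.9 and 75.6 CPM against 194, 219, 129 and 164 CPM (2.06 ± 0.34). Klrb1b and Ifi27l2a each did not pass under 9 alternatives, and Ctla2a under 8. The highest cell held 57.6% of the Cxcl2 UMIs in SARAWT PBS 1 and 52.2% in SARATg PBS. For Ifi27l2a the highest cell held 75.8% in SARATg PBS. Ccl20, the ligand of CCR6, had 1 UMI in the PBS libraries together and 17, 26, 66 and 13 UMIs in the bleomycin libraries, carried by 22 cells in all.

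**Figure D4:**
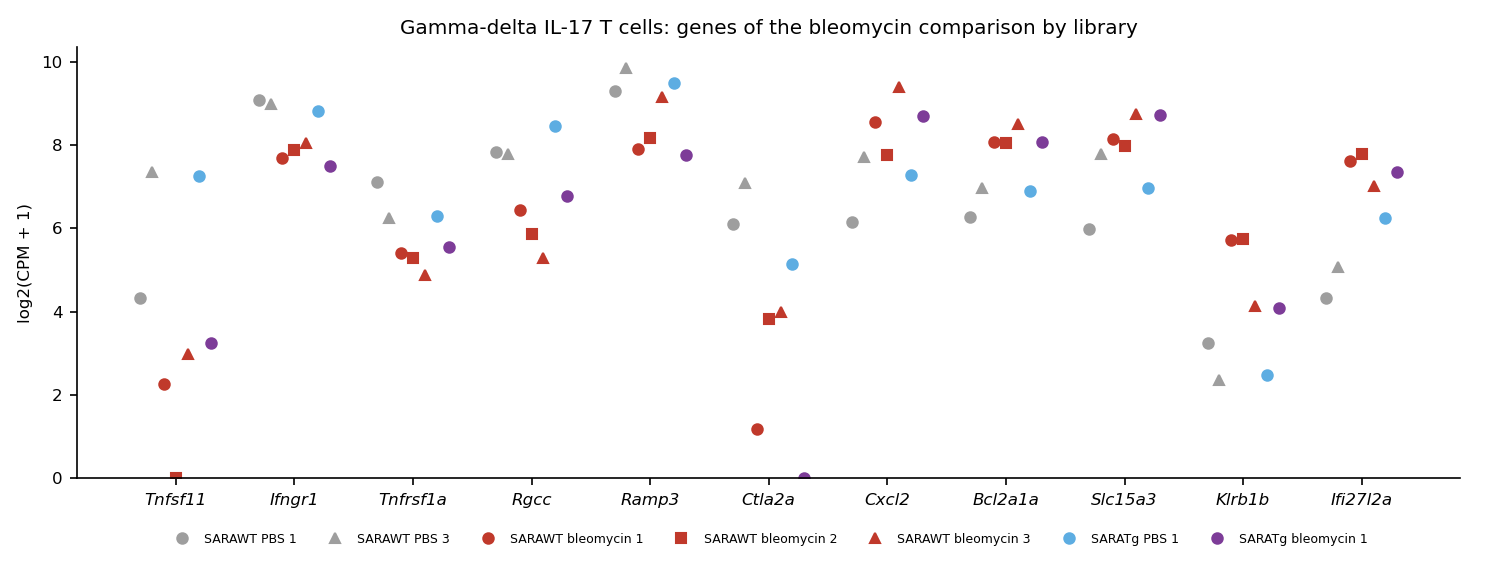
Level of 11 genes (log2 of CPM plus 1, y axis) in the γδ IL-17 T cells of the 7 libraries tested, with 1 symbol per library as named in the key. Tnfsf11, Ifngr1, Tnfrsf1a, Rgcc, Ramp3 and Ctla2a were lower and the other genes higher with bleomycin in the 7-library test, in which no gene passed when the gene list term was left out.

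Of the listed groups, cytokine receptors counted 2 lower of 24 tested with bleomycin (median log2 fold change -0.13, all genes 0.02), chemokines 2 higher of 7, interferon-stimulated genes 1 higher of 14 (median 0.84) and cytotoxic genes 1 higher of 9, which was Klrb1b. No gene passed among 21 type 17 regulators (median 0.11), 26 surface and companion genes (0.26), 17 T cell receptor genes (0.20), 17 TGF-β signalling genes (-0.11), 21 proliferation genes (-0.36) or 21 immediate early and heat shock genes (0.02). Of all genes 0.174% were higher and 0.0761% lower, so 0 in lists of this size is the background level and not a result about them. Of the genes that chose the cells, Il17a and Il17f overlapped between treatments. Il17a was at 1677, 684 and 1125 CPM with PBS and at 1834, 904, 911 and 1273 CPM with bleomycin, and Il17f at 2133, 818 and 1038 CPM against 850, 878, 868 and 1249 CPM. The sum of all 8 genes that chose the cells did not overlap in the libraries tested, at 5784 to 6786 CPM with PBS and 7325 to 8238 CPM with bleomycin. In SARAWT PBS 2, left out for its few cells, it was 16875 CPM, above every bleomycin library. This sum is given as description.

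Transcripts of other cell types were present beside these genes. Macrophage markers summed to 1628, 254 and 172 CPM in the PBS libraries and to 229, 533, 1069 and 606 CPM with bleomycin. These sums overlapped, and 1 of 9 tested genes passed, C1qa, a complement gene of macrophages found in 45 of the 1689 cells. Dendritic cell markers summed to 3024 to 6840 CPM with PBS and 2956 to 6393 CPM with bleomycin, which overlapped too, and none of 7 passed. The sums of B cell markers and dendritic epidermal T cell markers did not overlap in these libraries. Lists that do not stand for other cell types did not overlap either. They were T cell receptor genes (2112 to 2657 CPM with PBS, 2722 to 3234 CPM with bleomycin), interferon-stimulated genes (1695 to 1844 against 2108 to 2466 CPM) and the genes that chose the cells. SARAWT PBS 2, left out for its few cells, stood at 4990 CPM for T cell receptor genes and 16875 CPM for the genes that chose the cells. Both sums lay above every bleomycin library. How many lists would part in this way by chance was not tested. The other lists overlapped. B cell markers summed to 4.58 to 17.1 CPM with PBS and 28.5 to 66.4 CPM with bleomycin, and none of 3 tested genes passed. These B cell sums were near the floor, since 1 UMI was worth 2.29 CPM in SARATg PBS. Dendritic epidermal T cell markers summed to 693 to 1003 CPM with PBS and 1020 to 1572 CPM with bleomycin, and none of 9 tested genes passed. That list holds Trdv4 and Itgae, which the γδ IL-17 T cells transcribed themselves, with Trdv4 alone at 55.5 to 517 CPM. Its sum is therefore not a measure of another cell type alone. The part of other cell types in the differences was not tested. When the 15 cells with at least 10 UMIs of stromal markers were left out, which was decided after the values were seen, 63 genes passed, 21 of the 23 among them. Without both SARAWT PBS libraries that went against their label, SARATg PBS was the only PBS library and the fit had 1 residual degree of freedom, with all spread taken from SARAWT bleomycin 1 and 2. The 360 genes that passed there are therefore no test of PBS against bleomycin.

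SARATg was compared with SARAWT over the same 7 libraries (2 against 5) with treatment and gene list as terms. Both SARATg libraries were on the shorter gene list. With that term the genotype difference therefore rested on SARAWT PBS 3 and SARAWT bleomycin 3 as controls. The other SARAWT libraries entered only through treatment, gene list and spread. SARAWT PBS 3 had more mouse Zfyve9 in these cells (800 CPM) than either SARATg library. In edgeR 37 of 9200 genes (0.402%) passed, 36 higher (0.391%) and 1 lower (0.0109%) in SARATg. The higher genes included several of the stromal matrix. Ndufa4l2, a pericyte gene, had the largest difference of the named genes (7.81 ± 0.59). Dcn, which encodes the collagen-binding proteoglycan decorin, was at 836 CPM in SARATg PBS, 221 CPM in SARATg bleomycin and 2.24 to 10.7 CPM in the SARAWT libraries (7.14 ± 0.37). Lum (6.56 ± 0.53), Bgn (5.05 ± 0.51) and Col6a1 (4.26 ± 0.60) were higher as well. The 9 stromal markers summed to 20618 CPM in SARATg PBS and 1314 CPM in SARATg bleomycin, against 23.6 to 163 CPM in SARAWT. In SARATg PBS, 3 of the 57 cells held 98.5% of these stromal UMIs, and in SARATg bleomycin 3 of the 358 cells held 63.7%.

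Without the 15 cells of at least 10 stromal UMIs, 5 genes passed. They were Mucl1 and Retnla, higher in SARATg, and Defb6, Krt79 and Apoe, lower in SARATg. None of these lower genes was called with all cells. Before cells were left out, 1 cell held 99.2% of 129 Krt79 UMIs in SARATg bleomycin. In SARAWT PBS 3 1 cell held 94.9% of 215, and in SARAWT bleomycin 3 1 cell held 99.4% of 154. Retnla, an alternatively activated macrophage product, was at 25.2 and 158 CPM in the SARATg libraries against 2.62 to 8.53 CPM, and 1 cell held 82.2% of its UMIs. Fth1, the ferritin heavy chain, was the one lower gene with all cells (-0.77 ± 0.12), at 8559 and 7505 CPM in SARATg and 8666 to 14741 CPM in SARAWT. None of the 9 named genes passed under every alternative. Lum, Aebp1 and Bgn passed wherever they were tested, but without those 15 cells their counts were too low for a test, and Retnla did not pass under 3 alternatives. No type 17 regulator (21 tested), TGF-β signalling gene (17 tested) or T cell receptor gene (17 tested) passed, which is also what the share of all genes (0.402%) gives for lists of this size. Mouse Zfyve9 did not pass (3.14 ± 1.73, edgeR adjusted p = 0.85), given its level in SARAWT PBS 3. Human ZFYVE9, the gene of the transgene, was not among the genes tested.

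**Figure D5:**
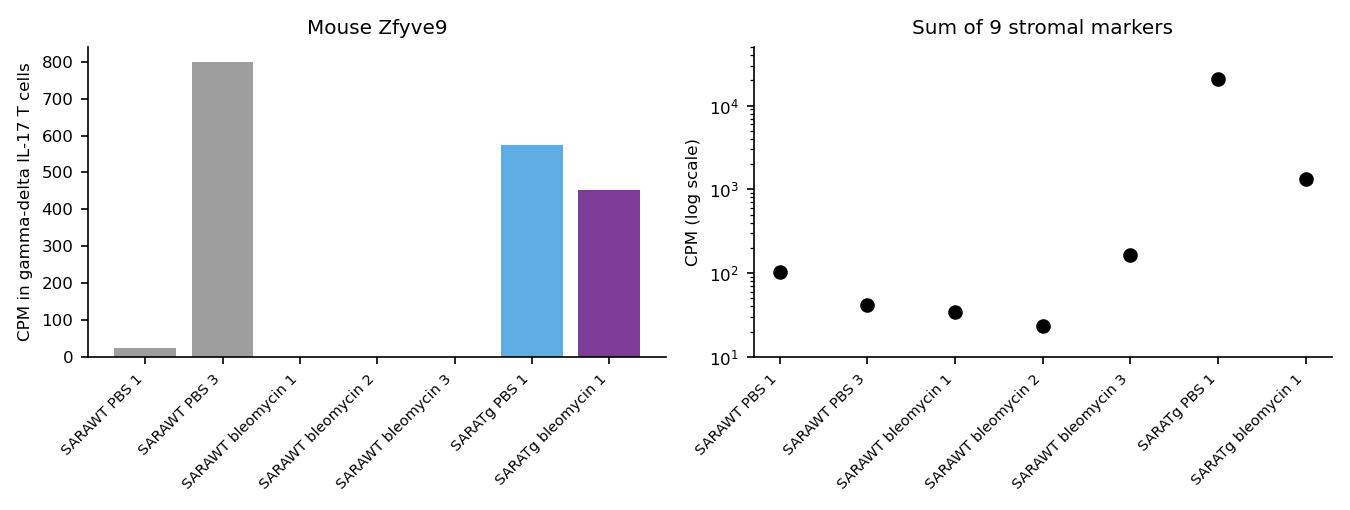
Left, level of mouse Zfyve9 (CPM, y axis) in the γδ IL-17 T cells of the 7 libraries tested. Right, sum of 9 stromal marker genes (CPM, log axis). Mouse Zfyve9 reached 800 CPM in a library labelled SARAWT PBS, and the stromal sum was 20618 CPM in SARATg PBS against 23.6 to 163 CPM in SARAWT libraries. Human ZFYVE9, the gene of the transgene, is not plotted.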

How the data were processed

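Single-cell RNA-seq (10x Genomics) was measured in the skin libraries described above, and kidney libraries of the series were used only for the closing values. The deposited values are raw UMI counts for each gene in each barcode. The authors produced them with Cell Ranger (4.0.0 or 3.1.0 for skin by the file headers; 3.0.2 in the submitters' processing notes, which also name Seurat 2.3.4 and mm10), without normalization. Gene lists of both versions were joined by Ensembl identifier.

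Cells and classes were cut by UMI counts as stated. The members and lists were chosen with earlier results of these data known. Doublets were predicted with scrublet in scanpy 1.11.5 and kept, except in an alternative. UMIs were summed per library and class where at least 10 cells were present, and tested with edgeR 4.0.16 in R 4.3.3 (low counts removed with filterByExpr, TMM scaling, then the two-sided quasi-likelihood test at an adjusted p of 0.05), checked on simulated counts. Library shares were tested by exact permutation and given with Clopper-Pearson 95% intervals that cover counting error only. Named genes were up to 10 per direction with the largest fold change among called genes of at least 20 CPM whose groups did not overlap (in blocked fits, the same sign in every library), genes of the lists, and, where fewer than 5 passed, the 5 per direction with the smallest p. For genes named by the largest fold change, lack of overlap or the same sign in every library is thus part of the choice and not a result. A few genes outside the rule (Mucl1, Defb6, Lcn2, Cybb) were named after their values were seen. A 3′ count does not depend on transcript length, but levels are compared only within a gene. Alternatives were DESeq2 1.42.0, RLE size factors, no filter on low counts, stricter cells or gate, cells thinned to 2000 UMIs, no shared barcodes, no doublets, a replicate block, other model terms and leaving out each library. The result of 1 type 17 regulator is not reported here.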

Additional observations from a re-analysis of the deposited data

Results flagged for a closer look

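The share of γδ IL-17 T cells among kept cells stood apart in SARAWT PBS 3 (6.21%), whose gap to the nearest of the 4 PBS libraries was 0.851 of their whole range. In the γδ IL-17 T cells, Bcl2a1a in SARAWT bleomycin 3 (362 CPM) had a gap of 0.962 of the range among 4 bleomycin libraries. Among 5 SARAWT libraries the gap was 0.754 of the range for Lum in SARAWT PBS 1 (4.27 CPM), 1 for Ndufa4l2 in SARAWT bleomycin 3 (0.447 CPM, the only library with a UMI), 0.744 for Bgn in SARAWT bleomycin 3 (4.92 CPM) and 0.971 for Zfyve9 in SARAWT PBS 3 (800 CPM). Of 30 sets of values examined, 6 were singled out in this way. The cutoffs give about 1 in 20 by chance for normally distributed values only. Lum, Ndufa4l2 and Bgn were near the floor in SARAWT, and the genes examined had been picked from the tests. The count of 6 is therefore no measure of an excess over chance.

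In the kidney libraries, which belong to no comparison here, 64 of 61744 kept cells (0.104%) passed the same gate, from 4 to 19 per library.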

How the results depend on the processing

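Shares kept their direction under the alternatives run. In the 8-library comparison the share difference passed with a stricter filter on cells (6.51 points), without shared barcodes (6.36) and with thinned cells (5.84), each at the smallest exact permutation p that 4 against 4 libraries allow. The Il17a difference in Trdc-positive T cells ranged from -893 to 155 CPM when each library was left out. Counts of genes moved more. For SARAWT bleomycin against PBS they were 27 with DESeq2, 182 with no filter on low counts, 38 in the fit of 4 groups and 0 to 7 with each library left out (6 without SARAWT PBS 1, 7 without SARAWT PBS 3, 3 without SARAWT bleomycin 3). For bleomycin against PBS over all libraries they were 81 with DESeq2, 400 with no filter, 39 without shared barcodes, 63 without the cells of stromal UMIs, 0 without the gene list term, 360 without both SARAWT PBS libraries, and 2 to 45 with each library left out (43 without SARAWT PBS 3, 15 without SARAWT bleomycin 1, 2 without SARAWT bleomycin 2, 45 without SARAWT bleomycin 3, 43 without SARATg PBS, 35 without SARATg bleomycin). For SARATg against SARAWT they were 277 with no filter, 24 with a stricter gate, 63 without shared barcodes, 104 without predicted doublets, 5 without the cells of stromal UMIs, 233 without both SARAWT PBS libraries, and 21 to 62 with each library left out (62 without SARAWT PBS 1, 21 without SARAWT PBS 3, 24 without SARAWT bleomycin 2). Against αβ T cells the range with each library left out was 1020 (without SARAWT bleomycin 3) to 1656, and against other Trdc-positive T cells 35 to 203, with 133 without SARAWT PBS 1, 371 by DESeq2, 703 with no filter and 33 without both SARAWT PBS libraries. The causes were not tested. The alternatives without stromal cells and without both SARAWT PBS libraries were chosen after seeing the data. In the latter, the bleomycin and genotype fits took their spread from SARAWT bleomycin 1 and 2 alone.

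Whether replicate numbers pair the SARAWT libraries could not be tested from the counts, since with 2 PBS libraries the deviations from their mean mirror each other, so the libraries share only a number as far as the labels show. With a replicate block, 149 genes passed for SARAWT bleomycin against PBS (81 higher, 68 lower). In that fit SARAWT bleomycin 2 had no PBS partner, since SARAWT PBS 2 was left out for its few cells, so little spread remained to test against. With the replicate block, the exact permutation p of the share among kept cells was 0.25, the smallest that 3 pairs allow, with all 3 differences positive.

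The 3 cells of SARAWT PBS 2 and the 46 and 57 cells of SARAWT PBS 1 and SARATg PBS limit what the PBS arm can show. In SARATg PBS 1 UMI is worth 2.29 CPM, against 0.224 CPM in SARAWT bleomycin 3.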

Other observations

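Il17a had a UMI in 19.9% and Il17f in 25.0% of αβ T cells, against 57.2% and 56.7% of the γδ IL-17 T cells at like depth (median 6389 and 6811 UMIs), and Cd163l1 in 3.65% against 76.7%. These genes chose the γδ IL-17 T cells only, so the contrast is description. Of the 1234 αβ T cells, 448 came from SARATg bleomycin, and their Il17a lay at 15.2 to 646 CPM by library. Of the γδ IL-17 T cells with Il17a, 69.5% also had Il17f, against 39.7% of those without Il17a. Cells without Il17a had to hold another gene of the rule, so the choice shaped these shares too.

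Glycolysis genes were split against αβ T cells, 3 higher and 3 lower of 16 tested, where 9.29% of all genes were higher and 8.5% lower. Hk2, the first enzyme of the pathway, was at 273 to 1227 CPM in the γδ IL-17 T cells and at 118 to 234 CPM in αβ T cells (2.07 ± 0.16), and Pfkp was higher too, whereas Ldha was at 469.5 to 729.8 CPM against 879.8 to 1403 CPM, lower in 7 of 7 libraries. Chemokine receptor and residence genes were split too, 6 higher and 7 lower of 22 tested (median -0.09). Cxcr3 (-3.49 ± 0.44 on the log2 scale), Ccr8 (-3.98 ± 0.54) and Ccr4 were lower, and Ccr2, a receptor for entry into inflamed tissue, was higher (0.87 ± 0.12). Cd69 and Itgae, which mark tissue residence, were higher as well (0.97 ± 0.16 and 0.67 ± 0.15). Against other Trdc-positive T cells, Itgae was lower in 4 of 4 libraries (median 255 against 333 CPM). Cd69 was higher there in 4 of 4 (343 against 145 CPM), and Hk2 in 3 of 4 (449 against 417 CPM).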
